A study of Mus musculus with 46 samples.

Results

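The genes described here are the 9 that encode the core and accessory subunits of Polycomb repressive complex 2 (PRC2): Ezh1, Ezh2, Eed, Suz12, Jarid2, Aebp2, Mtf2, Phf19 and Phf1. They were chosen by symbol, 9 of the 37108 genes of the gene table, and all 9 were also listed in the transcript table, where their transcripts (61 in all) were summed per gene. Mouse embryonic fibroblasts (MEF) of E13.5 OG2 embryos were infected with retroviral Oct4 together with either native Nanog (NanogWT) or Nanog carrying at its side an N-terminal stretch of SS18 (NanogBiD; NanogN70 in the labels), where SS18 is a protein of the chromatin remodeller BAF. RNA was sequenced at D0 (after the infection) and then on D1, D3, D5, D7, D8, D10 and finally D12, with 2 libraries per combination and day except for 1 of NanogBiD at D8. The 12 libraries of established induced pluripotent stem cells (iPSC) comprised 6 per combination, from 2 lines each (iPSC1 and iPSC2), where 2 of the NanogWT iPSC1 libraries (1 and 1-2) carry the same clone number and may be 1 clone, and 2 uninfected MEF libraries and 1 library of OG2 mouse embryonic stem cells (mES) served as references. All cells of the time course carried Oct4 and passed from iCD3 medium to N2B27 with 2i and LIF after D7. The iPSC lines differed in passage, so that line and passage cannot be told apart. Within NanogWT iPSC1, libraries 2 and 1-2 were of a later passage than the others. Every time-course library was a bulk culture in which reprogramming and other cells were mixed.

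PRC2 places the repressive methyl mark on histone H3 that Polycomb silencing depends on. EZH2 or EZH1 is its catalytic subunit, EED binds the mark and is needed for activity, and SUZ12 is the scaffold on which the accessory subunits assemble. These fall into exclusive sets: the Polycomb-like (PCL) proteins PHF1, MTF2 and PHF19, which recruit the complex to CpG-rich DNA, and the pair of JARID2 and AEBP2, which recruit and stimulate it in another way. EZH2 is known as the form of dividing and pluripotent cells and EZH1 as the form of resting ones, while MTF2 and JARID2 are typical of embryonic stem cells.

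In GRCm38 (mm10), the build of the files, Ezh2 lies on chromosome 6 from 47530139 to 47595341 (minus strand) and its paralogue Ezh1 on chromosome 11 from 101191115 to 101226463 (minus). Eed lies on chromosome 7 from 89954654 to 89980983 (minus) and Suz12 on chromosome 11 from 79993106 to 80034123 (plus). The accessory genes are Jarid2 (chromosome 13, 44729474 to 44921643, plus), Aebp2 (chromosome 6, 140622663 to 140678472, plus), Mtf2 (chromosome 5, 108065674 to 108109004, plus), Phf19 (chromosome 2, 34893757 to 34914026, minus) and Phf1 (chromosome 17, 26933052 to 26937908, plus). Phf1 overlaps the protein-coding gene Cuta, and Mtf2 overlaps Tmed5, each on the opposite strand. No source says if strand was used in the counting, so reads of these overlaps cannot be assigned with certainty.

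The sequence before the start site is shown for the 3 core genes called higher with NanogBiD at D7, D10 and D12, Ezh2, Eed and Suz12, and for Ezh1, called at D12 alone. It was taken from RefSeq (GRCm38.p6), which held all 9 genes. It covers the 250 bases before the RefSeq start, without bases that fall in annotated exons of the gene. The RefSeq start can differ from the gene end given above. For Ezh2 the window, 47595031 to 47595280, lies inside the span given above, so that its stretch and matches precede an internal start. Capitals mark matches, on either strand, of 3 sets of letters: CCAAT, TTTNNCGC (an E2F-type site) and ATGCAAAT (the octamer bound by Oct4). No match overlapped another.
Ezh2, minus strand of chr6:47595059-47595183: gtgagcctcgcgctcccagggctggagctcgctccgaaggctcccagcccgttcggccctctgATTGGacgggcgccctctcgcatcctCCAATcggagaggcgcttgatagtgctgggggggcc
Eed, minus strand of chr7:89980984-89981226: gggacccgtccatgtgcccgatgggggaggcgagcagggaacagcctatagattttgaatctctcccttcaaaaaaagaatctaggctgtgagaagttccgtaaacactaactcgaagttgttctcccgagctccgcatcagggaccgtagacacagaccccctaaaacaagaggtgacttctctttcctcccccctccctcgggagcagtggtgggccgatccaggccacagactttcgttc
Suz12, plus strand of chr11:79992856-79993105: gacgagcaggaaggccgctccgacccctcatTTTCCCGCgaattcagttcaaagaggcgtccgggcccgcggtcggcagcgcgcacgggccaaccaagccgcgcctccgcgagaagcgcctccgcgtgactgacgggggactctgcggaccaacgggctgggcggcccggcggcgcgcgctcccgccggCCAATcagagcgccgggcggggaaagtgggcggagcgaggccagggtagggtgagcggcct
Ezh1, minus strand of chr11:101226464-101226713: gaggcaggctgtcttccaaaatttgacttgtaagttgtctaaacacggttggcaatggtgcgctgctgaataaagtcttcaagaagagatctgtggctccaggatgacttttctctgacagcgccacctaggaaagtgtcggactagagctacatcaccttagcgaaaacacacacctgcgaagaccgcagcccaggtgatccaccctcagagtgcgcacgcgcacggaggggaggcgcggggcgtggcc
Over the whole window of 250 bases, Ezh2 held 3 CCAAT matches, Suz12 held 1 CCAAT and 1 TTTNNCGC match, and Eed and Ezh1 held none of the 3. Phf19 held 2 TTTNNCGC matches, and no window of the 9 genes held ATGCAAAT. Of all 32851 RefSeq promoter windows, 33.8% held CCAAT, 4.28% TTTNNCGC and 1.60% ATGCAAAT. The Suz12 window was 73.6% G and C with 37 CpG, Ezh2 63.6% with 23, Ezh1 55.2% with 14 and Eed 54.4% with 12, against medians of 52.4% and 6 over all windows. A match is a description of the letters only.

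Values are FPKM, in which fragment numbers are divided by gene length and library size. Levels, ratios and shares of different genes still depend on how they were quantified. In MEF library 1 the ratio of Ezh2 to Ezh1 was 3.07 in the gene table and 5.07 in the transcript table. Same-day libraries correlated across genes at r = 0.961 to 0.990. Relative depth, read from the steps between low values, was 0.808 to 1.10 in 25 of the time-course libraries and 1.84 to 3.17 in the 6 NanogWT libraries of D8 to D12, so that depth and combination cannot be told apart from D8 on. None of 8 fibroblast markers was under 1 FPKM in both MEF libraries, where all 8 pluripotency markers were, while in mES none of the pluripotency markers and 5 of the fibroblast markers were under it. The skeletal muscle list summed to between 3.08 and 90.2 FPKM over the time course, the endothelial list to between 0.771 and 26.0, the macrophage list to between 1.83 and 16.7 and the epidermal list to at most 1.14.

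Ezh2, the catalytic subunit of dividing cells, stood at 9.08 and 9.68 FPKM in MEF and at 61.5 in mES. With NanogBiD it was at 7.90 and 8.05 FPKM at D0, 11.8 and 12.1 on D1, 13.4 and 9.44 on D3, 9.95 and 11.1 on D5, 21.8 and 22.1 at D7, 35.7 at D8, 45.7 and 46.7 at D10, and 41.1 and 46.3 at D12. NanogWT libraries had 6.81 and 7.30 FPKM at D0, 8.98 and 8.24 on D1, 10.6 and 7.93 on D3, 8.98 and 9.82 on D5, 8.28 and 8.94 at D7, 5.44 and 5.37 at D8, 5.50 and 11.9 at D10, and 13.9 and 15.6 at D12. From D7 on every NanogBiD library lay above every NanogWT library. The same-day groups were also apart, by less, at D0, D1 and D5, and they overlapped at D3. The lowest Ezh2 values of the time course were those of NanogWT at D8, and its 2 libraries at D10 differed by 2.16-fold.

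Ezh1, the other catalytic subunit, was at 2.96 and 3.04 FPKM in MEF and at 11.5 in mES. From D0 to D8 it lay between 2.10 and 3.51 FPKM in all NanogBiD libraries, and it was at 6.62 and 4.02 at D10 and at 10.2 and 6.36 at D12. With NanogWT it was at 2.93 and 3.20 FPKM at D0, 3.21 and 3.19 at D7, 4.71 and 3.90 at D8, 4.81 and 3.41 at D10, and 3.53 and 3.27 at D12. Ezh1 was thus level with NanogBiD from D0 to D8, and its high values came at D10 and D12. The groups did not overlap at D12, and they overlapped at D10.

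Eed, which reads the mark, was at 9.62 and 8.15 FPKM in MEF and at 37.4 in mES. With NanogBiD it was at 7.72 and 9.02 FPKM at D0, 9.25 in both libraries at D5, 12.7 and 15.0 at D7, 22.9 at D8, 26.3 and 25.3 at D10, and 31.7 and 21.7 at D12. The NanogWT values were 7.45 and 7.33 FPKM at D0, 5.47 and 7.15 at D7, 7.48 and 8.70 at D8, 9.43 and 11.8 at D10, and 10.3 and 10.99 at D12. The lowest NanogBiD value of D7 to D12 was above the highest NanogWT value of those days. On each day from D0 to D5 the NanogBiD libraries also lay above the NanogWT libraries of the same day, by less.

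Suz12, the scaffold, was at 20.9 and 17.4 FPKM in MEF and at 122.5 in mES. With NanogBiD it was at 27.3 and 28.7 FPKM at D0, 24.4 and 25.8 at D5, 40.2 and 55.4 at D7, 65.8 at D8, 74.0 and 60.3 at D10, and 97.0 and 81.4 at D12. With NanogWT it was at 13.9 and 19.2 FPKM at D0, 21.4 and 26.8 at D7, 14.9 and 17.0 at D8, 14.2 and 18.5 at D10, and 17.9 and 28.4 at D12. Here too the groups did not overlap from D7 on. They did not overlap at D0, D1 and D3 either, and they overlapped at D5. No share of all genes without overlap is given, here or for the other members, so that lack of overlap is a description only.

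Of the accessory genes, Jarid2 was at 3.12 and 2.85 FPKM in MEF and at 42.3 in mES. With NanogBiD it was at 4.49 and 4.32 FPKM at D0, 4.13 and 3.42 on D1, 6.00 and 6.92 on D3, 7.72 and 9.49 on D5, 16.6 and 15.4 at D7, 26.5 at D8, 38.6 and 32.8 at D10, and 44.5 and 36.9 at D12. In NanogWT libraries it was at 3.33 and 3.18 FPKM at D0, 3.61 and 3.41 on D1, 3.80 and 3.86 on D3, 4.56 and 5.25 on D5, 6.09 and 6.38 at D7, 6.41 and 7.87 at D8, 5.25 and 8.94 at D10, and 8.93 and 10.8 at D12. At D12 the NanogBiD libraries lay on either side of mES, and the NanogBiD libraries were above the NanogWT libraries at D0 and on each day from D3 on. Aebp2, which is found in the same form of the complex, kept within a narrow span of 12.9 to 23.8 FPKM over all 31 libraries, with 11.7 and 13.4 in MEF and 18.7 in mES. It was at 22.6 and 20.7 FPKM with NanogWT at D8 and at 23.8 and 21.6 at D10, against 19.2 at D8 and 16.6 and 16.4 at D10 with NanogBiD, which had 18.5 and 21.7 at D0.

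Mtf2, the PCL protein of embryonic stem cells, was at 3.76 and 3.53 FPKM in MEF and at 40.6 in mES. With NanogBiD it was at 3.76 and 5.02 FPKM at D0, 7.56 and 9.66 at D5, 11.5 and 14.9 at D7, 17.8 at D8, 29.8 and 20.8 at D10, and 39.5 and 27.6 at D12. With NanogWT it was at 2.08 and 3.83 FPKM at D0, 7.76 and 7.00 at D5, 5.72 and 8.96 at D7, 4.54 and 5.84 at D8, 4.86 and 5.06 at D10, and 5.30 and 8.16 at D12. Of the other two PCL genes, Phf1 was at 9.15 and 6.20 FPKM in MEF and 1.63 in mES, and between 1.96 and 7.65 over the time course, where same-day libraries differed by up to 2.36-fold. Phf19 was at 3.20 and 2.61 FPKM in MEF and 1.45 in mES. With NanogBiD it was at 2.51 and 3.17 FPKM on D1, 1.21 and 1.45 on D3, 1.27 and 1.05 on D5, 1.08 and 1.13 on D7, 3.60 and 1.83 on D10 and 3.94 and 1.61 on D12, and with NanogWT it was at 2.40 and 2.79 at D3, 2.11 and 2.28 at D7 and 1.27 and 1.09 at D12. At D3 to D7 the NanogBiD libraries lay below the NanogWT libraries of the same day, and at D10 and D12 they lay above them.

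**Figure D1:**
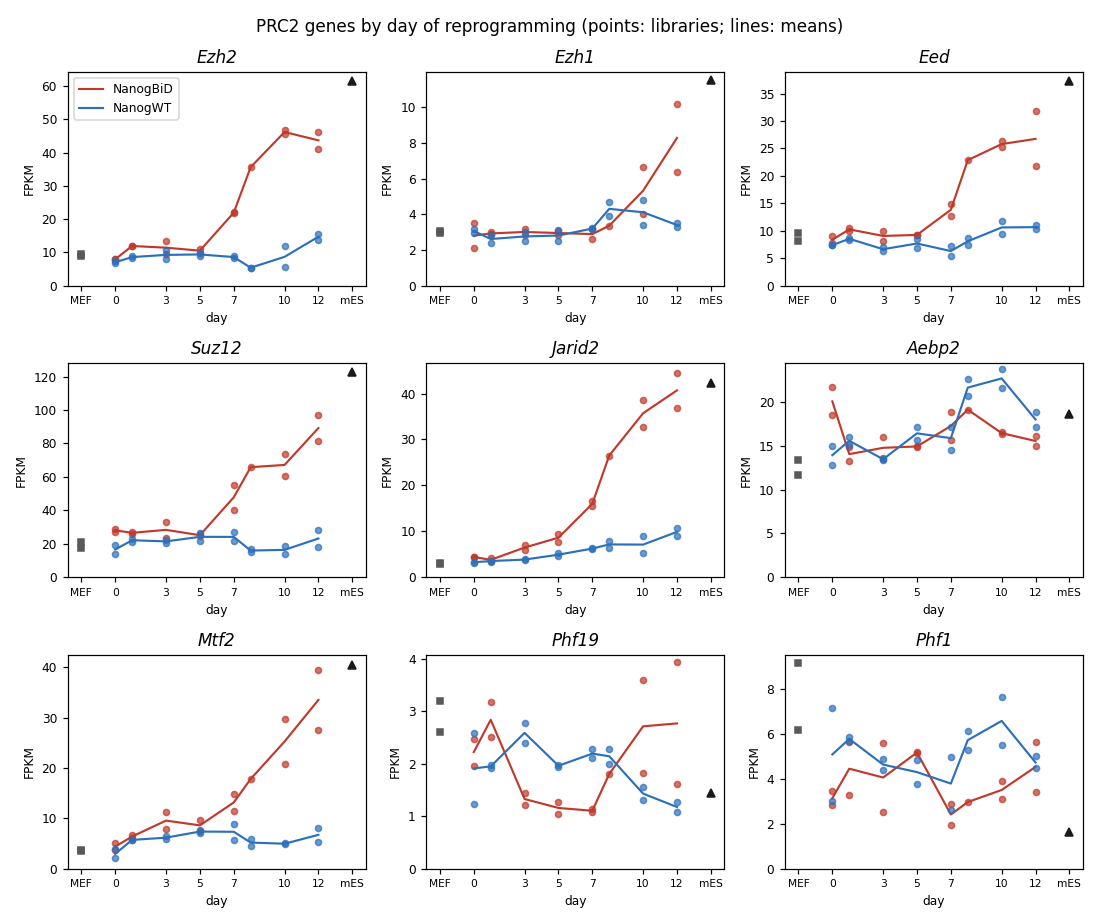
Level of each of the 9 PRC2 genes (FPKM, vertical axis from 0) by day, with a point per library and a line through the means of NanogBiD (red) and NanogWT (blue), MEF at the left (squares) and mES at the right (triangle). Ezh2, Eed, Suz12, Jarid2 and Mtf2 lie apart on each day from D7 to D12, and some of them also on earlier days. How many of all genes lie apart was not counted, so that this is a description only. Ezh1 is higher with NanogBiD at D12, and Aebp2 keeps within 12.9 to 23.8 FPKM in the time course.

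Which PRC2 genes differed between the combinations, and when, was tested day by day. At D7, the last day on which libraries of both combinations had like depth, 5 of 9 were higher with NanogBiD and none lower, among 28.4% of the 16842 genes tested that were called in either direction. Those were Ezh2 at 21.96 ± 0.198 against 8.61 ± 0.464 FPKM (mean ± SD, n = 2 each), Jarid2 at 15.98 ± 0.830 against 6.24 ± 0.203, Eed at 13.8 ± 1.60 against 6.31 ± 1.18, Suz12 at 47.8 ± 10.7 against 24.1 ± 3.78 and Mtf2 at 13.2 ± 2.40 against 7.34 ± 2.29. The differences in log2(FPKM + 1) were 1.26 for Ezh2 (SE 0.21, limma adjusted p = 0.00017), 1.23 for Jarid2 (SE 0.18, adjusted p = 3.2e-05), 1.03 for Eed (SE 0.17, adjusted p = 0.00012), 0.95 for Suz12 (SE 0.22, adjusted p = 0.0025) and 0.78 for Mtf2 (SE 0.26, adjusted p = 0.029). Without NanogBiD replicate 2 the adjusted p was 0.055 for Suz12 and 0.21 for Mtf2, and without NanogWT replicate 1 it was 0.30 for Mtf2. Mtf2 also failed with no filter on low values, after rescaling to a common total or after quantile normalization (adjusted p = 0.053, 0.054 and 0.055), and the last 2 called Phf19 lower (-0.82 and -0.71, adjusted p = 0.045 and 0.040). Fitted on the D7 libraries alone, Suz12 (0.074) and Mtf2 (0.15) failed and Phf19 passed (0.049). Ezh1 (-0.11, adjusted p = 0.76), Aebp2 (0.11, 0.57), Phf1 (-0.46, 0.33) and Phf19 (-0.60, 0.084) did not pass. The median difference was 0.78 over the 9 genes and 0.08 over all genes tested. At the same day 12 of 14 genes of a cell cycle list (Mki67, Top2a, Pcna, Mcm2 to Mcm7, Ccna2, Ccnb1, Cdk1, E2f1, Rrm2) were higher with NanogBiD, with summed levels of 614 to 664 against 232 to 262 FPKM. The fibroblast markers summed to 249 to 394 FPKM with NanogBiD against 538 to 602, and the pluripotency markers to 111 to 121 against 15.2 to 15.9. The skeletal muscle list, of which 2 of 3 genes were at 0, summed to 6.14 to 14.7 against 59.3 to 90.2 FPKM, the endothelial list to 2.46 to 2.96 against 1.59 to 2.45 and the macrophage list to 3.04 to 4.96 against 3.75 to 5.50. The part of these in the PRC2 result was not tested, and in bulk libraries fewer cells of a type and less RNA per cell cannot be told apart.

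At D10, 5 genes were higher and 1 was lower, in a comparison in which 55.6% of all genes tested were called. The differences were 2.37 for Ezh2 (SE 0.21), 2.21 for Jarid2 (SE 0.18), 2.12 for Mtf2 (SE 0.26), 1.98 for Suz12 (SE 0.22) and 1.21 for Eed (SE 0.17), with limma adjusted p from 6.6e-09 to 5.5e-06. Aebp2 was lower with NanogBiD by 0.44 on the log2 scale (-0.44, SE 0.13, adjusted p = 0.0067), which without NanogWT replicate 1 was -0.37 (adjusted p = 0.068). Phf19 (0.57, adjusted p = 0.062) would pass without NanogBiD replicate 2, with 0.92 and an adjusted p of 0.012, and Phf1 (-0.74, adjusted p = 0.060) passed after rescaling to a common total (-0.91, 0.031), quantile normalization (-0.87, 0.021) or removal of the GC and length trend (-0.79, 0.015). At D12, 7 genes were higher and none lower, among 50.7% called. Mtf2 was at 33.5 ± 8.44 against 6.73 ± 2.02 FPKM (2.16, SE 0.26, adjusted p = 1.1e-06), Jarid2 at 40.7 ± 5.37 against 9.87 ± 1.32 (1.94, SE 0.18), Suz12 at 89.2 ± 11.04 against 23.2 ± 7.43 (1.93, SE 0.22), Ezh2 at 43.7 ± 3.65 against 14.7 ± 1.25 (1.51, SE 0.21) and Eed at 26.7 ± 7.06 against 10.7 ± 0.456 (1.23, SE 0.17). Ezh1 had joined them, at 8.28 ± 2.72 against 3.40 ± 0.187 FPKM (1.05, SE 0.22, adjusted p = 0.00050). Phf19, at 0.72 (SE 0.25, adjusted p = 0.022), rested on single libraries: it was at 0.26 (adjusted p = 0.44) without NanogBiD replicate 1, 0.78 (0.056) without NanogWT replicate 1, 0.66 (0.10) without NanogWT replicate 2 and 0.57 (0.064) after quantile normalization. At D12 the fibroblast markers summed to 245 to 384 FPKM with NanogBiD and 2280 to 2865 with NanogWT, the pluripotency markers to 1038 to 1947 and 134 to 210, and the cell cycle list to 910 to 1035 and 302 to 342. The endothelial list summed to 14.1 to 26.0 with NanogBiD and 1.73 to 3.36 with NanogWT, and the skeletal muscle list to 4.08 to 5.94 and 6.93 to 9.49. Of the 3 endothelial genes, 2 were under 1 FPKM in both NanogBiD libraries, and the list summed to 47.5 FPKM in mES, so that its sum does not show endothelial cells. Their part in the result was not tested, and these days carry the difference in depth.

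Before D7 few members passed. By limma no member passed at D0, where 1.91% of all genes were called, or at D1, where 3.27% were, and 2 and 0 members had an unadjusted p under 0.05. The 2 at D0 were Suz12 (0.74, adjusted p = 0.088) and Aebp2 (0.50, adjusted p = 0.051). Without NanogWT replicate 2 they passed, with 0.96 (adjusted p = 0.028) and 0.60 (adjusted p = 0.023). Jarid2 was the first to pass, with 0.62 at D3 (SE 0.18, adjusted p = 0.030, among 10.1% of genes called) and 0.70 at D5 (SE 0.18, adjusted p = 0.0098, among 16.4%), and it was the only member to do so on those days. The D3 call was lost without any one of the 4 libraries (adjusted p from 0.064 to 0.14) and after rescaling to a common total (0.068), and the D5 call without NanogBiD replicate 2 (0.12) or NanogWT replicate 1 (0.10).

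**Figure D2:**
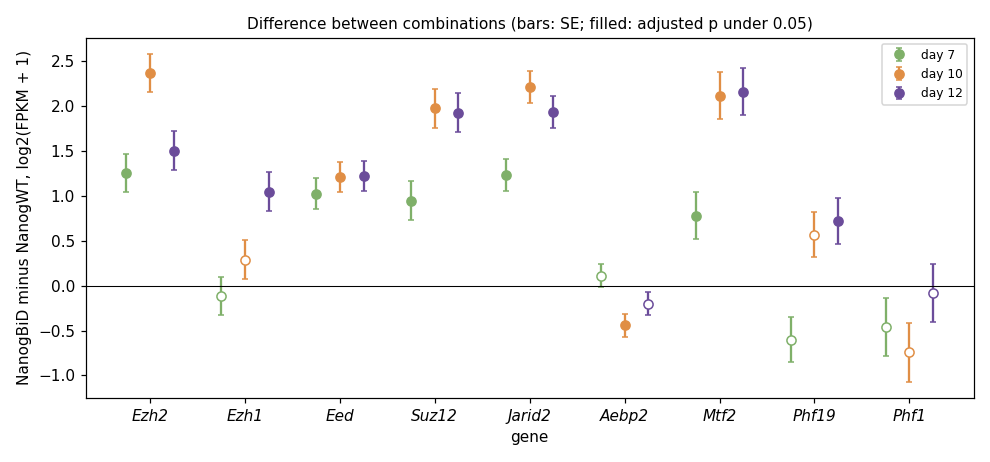
NanogBiD minus NanogWT in log2(FPKM + 1) for each PRC2 gene at D7, D10 and D12, with bars of 1 SE from the limma fit and filled points where the adjusted p is under 0.05. Ezh2, Eed, Suz12, Jarid2 and Mtf2 are filled above 0 on all 3 days, from 0.78 to 2.37, Ezh1 and Phf19 only at D12, and Aebp2 only at D10, below 0.

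Within each combination the changes since D0 were compared next, with all genes tested shifted by a median of 0.24 with NanogBiD and 0.12 with NanogWT at D7. With NanogBiD 5 members rose by D7, among 43.8% of genes called: Jarid2 (1.65, SE 0.18), Mtf2 (1.39, SE 0.26), Ezh2 (1.36, SE 0.21), Suz12 (0.73, SE 0.22) and Eed (0.66, SE 0.17), with limma adjusted p from 3.5e-07 to 0.0098. The Suz12 call was lost without NanogBiD D0 replicate 1 (adjusted p = 0.056) or D7 replicate 2 (0.51, adjusted p = 0.13). With NanogWT 2 members rose, among 38.7% called, namely Mtf2 (1.08, SE 0.26, adjusted p = 0.0023) and Jarid2 (0.77, SE 0.18, adjusted p = 0.0018). Mtf2 did not pass without NanogWT D0 replicate 1 (0.76, adjusted p = 0.058) or D7 replicate 2 (adjusted p = 0.055), while Suz12 passed without D0 replicate 2 (0.74, adjusted p = 0.026), and Jarid2 did not pass after removal of the GC and length trend (0.42, adjusted p = 0.12). Phf19 with NanogBiD (-0.61, adjusted p = 0.057) and Eed with NanogWT (-0.21, adjusted p = 0.36) were called lower after quantile normalization (-0.98 and -0.45, adjusted p = 0.0039 and 0.038). Phf19 was also called lower with 0.1 added in place of 1 (limma adjusted p = 0.040) and after rescaling to a common total (0.041). The same held on the compared groups alone (0.047) and after removal of the GC and length trend (0.025). Suz12 with NanogWT passed after that rescaling (0.68, adjusted p = 0.028) and that removal (0.46, 0.019). Set against each other, the changes differed for 3 members, among 15.9% called: Ezh2 (1.10, SE 0.30, adjusted p = 0.017), Jarid2 (0.88, SE 0.25, adjusted p = 0.021) and Eed (0.87, SE 0.24, adjusted p = 0.017). Mtf2 (0.31, adjusted p = 0.64) and Suz12 (0.21, adjusted p = 0.72) did not differ past the threshold. All 3 calls were lost without NanogWT D7 replicate 1 (adjusted p = 0.056 for Ezh2, 0.091 for Eed and 0.063 for Jarid2). Eed was also lost without NanogBiD D0 replicate 1 (0.073) or D7 replicate 2 (0.066), and Jarid2 without NanogBiD D0 replicate 2 (0.065), D7 replicate 1 (0.068) or NanogWT D0 replicate 1 (0.053) and after rescaling to a common total (0.82, adjusted p = 0.057). Without NanogWT D0 replicate 1 Phf19 differed at -1.13 (adjusted p = 0.048) in place of -0.78 (0.15).

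By D12 with NanogBiD 6 members had risen and 1 had fallen, among 61.7% of genes called and a median of 0.34 over all genes. The risen genes were Jarid2 (2.94, SE 0.18), Mtf2 (2.67, SE 0.26), Ezh2 (2.31, SE 0.21), Suz12 (1.63, SE 0.22), Eed (1.55, SE 0.17) and Ezh1 (1.28, SE 0.22), with limma adjusted p of at most 4.3e-05. Aebp2 fell by 0.35 on the log2 scale (SE 0.13, adjusted p = 0.025). That call was lost without D0 replicate 2 (-0.24, adjusted p = 0.21) or D12 replicate 2 (-0.30, adjusted p = 0.12) and after rescaling to a common total (-0.33, adjusted p = 0.065), and it was -0.01 (adjusted p = 0.95) once the dependence on GC content and transcript length was taken out of each library. Phf19 passed only without D12 replicate 2 (0.62 in place of 0.16, adjusted p = 0.048). With NanogWT 5 members rose, among 38.1% called and a median of 0.19: Jarid2 (1.35, SE 0.18), Mtf2 (0.98, SE 0.26), Ezh2 (0.96, SE 0.21), Eed (0.48, SE 0.17) and Aebp2 (0.35, SE 0.13), with adjusted p from 5.7e-06 to 0.037. Leaving out any one of the 4 libraries ended the call of Eed (adjusted p from 0.077 to 0.14), leaving out D0 replicate 1, D12 replicate 1 or D12 replicate 2 that of Aebp2 (0.22, 0.20 and 0.057), and leaving out D0 replicate 1 (0.65, 0.096) or D12 replicate 2 (0.71, 0.095) ended that of Mtf2. Quantile normalization ended all 3 (adjusted p = 0.31, 0.34 and 0.072) and called Phf19 lower (-0.85, adjusted p = 0.012). Suz12 passed without D12 replicate 1 (0.76, adjusted p = 0.023) or D0 replicate 2 (0.66, adjusted p = 0.050), and after removal of the GC and length trend (0.57, adjusted p = 0.0044). The changes differed between the combinations for 7 members, among 37.1% called. Those of Mtf2 (1.69, SE 0.37), Jarid2 (1.59, SE 0.25), Ezh2 (1.35, SE 0.30), Suz12 (1.19, SE 0.31), Ezh1 (1.17, SE 0.31) and Eed (1.07, SE 0.24) were larger with NanogBiD, and that of Aebp2 (-0.70, SE 0.18, adjusted p = 0.0053) went the other way. After removal of the trend over GC content and length Aebp2 was at -0.37 (adjusted p = 0.11), and without NanogBiD D12 replicate 2 Phf19 was called as well (1.00 in place of 0.54, adjusted p = 0.026). The comparisons with D0 and their difference share the D0 libraries.

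The balance of the catalytic subunits was followed as the ratio of Ezh2 to Ezh1, which is free of any common scaling of a library. The ratio was 3.07 and 3.19 in MEF and 5.35 in mES. From D0 to D5 it lay between 2.29 and 4.73 with NanogBiD and between 2.28 and 4.23 with NanogWT. At D7 it was 6.86 and 8.50 with NanogBiD against 2.58 and 2.80 with NanogWT, at D8 10.6 against 1.15 and 1.38, at D10 6.91 and 11.6 against 1.14 and 3.48, and at D12 4.03 and 7.28 against 3.93 and 4.78. The combinations thus went opposite ways after D5 and met again at D12, where the groups overlapped. The separate levels show what moved: at D8 the NanogBiD library had 35.7 FPKM of Ezh2 and 3.36 of Ezh1, while the NanogWT libraries had 5.44 and 5.37 of Ezh2 and 4.71 and 3.90 of Ezh1. At D12 Ezh1 made up 19.9% and 12.1% of the summed Ezh1 and Ezh2 level with NanogBiD, against 8.61% in the D8 library. Over D5 to D12 the log2 ratio was higher with NanogBiD by 1.43 on average (p = 0.00231 by an exact permutation test, two-sided, with the combination permuted inside each day, over 3888 arrangements). The difference by day was 0.09 at D5, 1.51 at D7, 3.07 at D8, 2.17 at D10, and 0.32 at D12, so that the mean rests on D7 to D10. Without D8 it was 1.02 (exact permutation p = 0.0139), and with D5 and D7 alone, before the depths parted, it was 0.80 (exact permutation p = 0.167, where 36 arrangements allow no p under 0.0556).

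**Figure D3:**
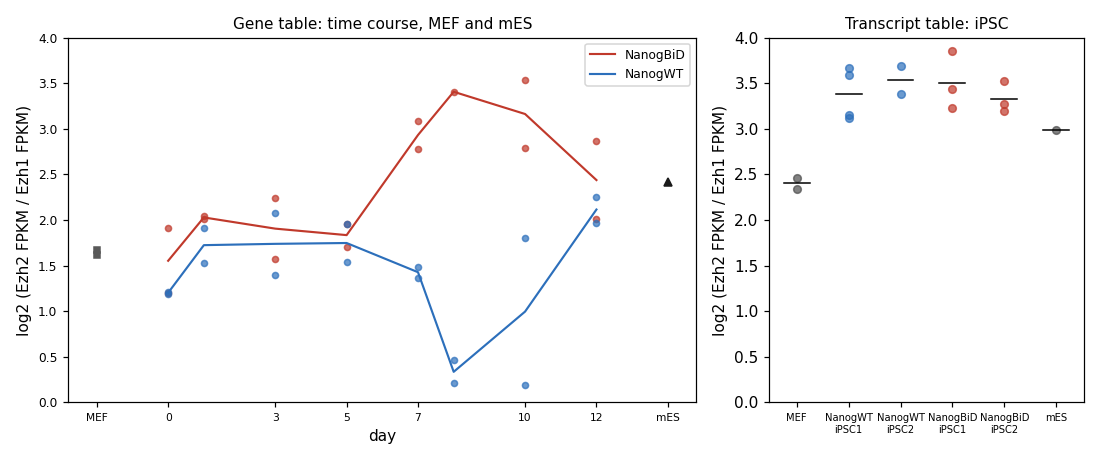
Log2 ratio of Ezh2 to Ezh1 FPKM, at the left by day in the gene table with MEF (squares) and mES (triangle), at the right in MEF, iPSC and mES of the transcript table, with a point per library and lines through the means. At the left, NanogBiD reaches 3.41 at D8, where NanogWT has its lowest mean of 0.33, and both lie between 1.97 and 2.86 at D12. At the right, MEF lie at 2.34 and 2.46, mES at 2.99 and the 12 iPSC libraries between 3.12 and 3.85. Ratios are compared only within a panel.

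Exchange among the accessory subunits was described by shares of their summed FPKM, with no test. Within the PCL set, Mtf2 made up 23.3% and 28.6% in MEF and 92.9% in mES, and Phf1 made up 56.8% and 50.2% in MEF and 3.74% in mES. With NanogBiD the share of Mtf2 was 44.0% and 45.8% at D0, 54.0% and 60.8% at D5, 74.4% and 82.8% at D7, 78.9% at D8 and 80.5% and 84.5% at D12. NanogWT libraries had 17.6% and 47.4% at D0, 57.5% and 50.8% at D5, 44.7% and 64.6% at D7, 38.3% and 40.9% at D8 and 45.8% and 59.5% at D12. The libraries of the combinations overlapped in this share at D0, D1 and D5. At D3 they were apart, with 53.5% and 73.9% for NanogBiD against 44.4% and 47.6% for NanogWT. From D7 on every NanogBiD library was above every NanogWT library. Phf1 made up 10.5% to 13.1% from D8 to D12 with NanogBiD against 32.5% to 54.3% with NanogWT. Phf19 made up 23.0% and 22.7% at D0 and 8.02% and 4.93% at D12 with NanogBiD, and 21.9% and 15.2% at D0 and 10.9% and 7.94% at D12 with NanogWT.

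Of the JARID2 and AEBP2 pair, Jarid2 made up 21.1% and 17.6% in MEF and 69.3% in mES. With NanogBiD its share was 19.5% and 16.6% at D0, 30.6% and 30.2% at D3, 33.9% and 38.9% at D5, 51.3% and 44.9% at D7, 58.0% at D8 and 73.4% and 71.1% at D12, and from D3 on it lay above both NanogWT libraries of each day. With NanogWT it was 20.5% and 17.5% at D0, 21.9% and 22.3% at D3, 29.4% and 27.05% at D7 and 32.1% and 38.6% at D12. The share thus turned with Jarid2, since Aebp2 stayed within its narrow span. Between the sets there was less movement: the summed PCL level was 0.371 to 0.815 of the summed Jarid2 and Aebp2 level with NanogBiD and 0.389 to 0.791 with NanogWT over the whole time course, 1.09 and 0.760 in MEF and 0.716 in mES.

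**Figure D4:**
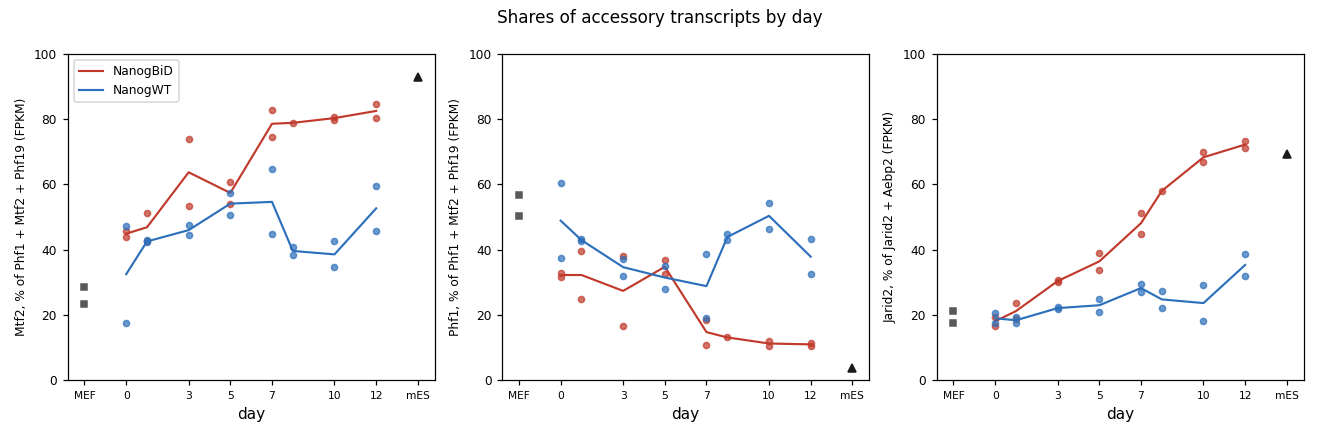
Share (percent of FPKM, 0 to 100) of Mtf2 and of Phf1 in the summed PCL genes, and of Jarid2 in the sum of Jarid2 and Aebp2, by day, with a point per library, lines through the means, MEF at the left (squares) and mES at the right (triangle). With NanogBiD the Mtf2 share reaches 80.5% and 84.5% and the Jarid2 share 73.4% and 71.1% at D12, and the NanogWT shares lie below them.

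Other genes tied to PRC2 were read from a list of 10. Rbbp4 and Rbbp7 encode the histone chaperones of the core. Epop, Elob and Eloc (elongin B and C), Lcor and Lcorl encode further partners of the PCL form, Ezhip an inhibitor, and Kdm6a and Kdm6b the demethylases of the mark. At D7 3 of 10 were higher with NanogBiD and none lower, at D10 5 and none, and at D12 7 and none, where 28.4%, 55.6% and 50.7% of all genes were called, so that the share of the list was near the background at D7 and D10. Epop stood out from the list. It was at 17.7 and 17.5 FPKM with NanogBiD at D5 against 2.64 and 2.70 with NanogWT, and at 49.5 and 32.5 against 3.55 and 2.61 at D7. Its log2 difference was 2.34 at D5 and 3.34 at D7, above that of any of the 9 subunits on those days, and it was at 422.8 FPKM in mES against 5.27 and 5.14 in MEF. Rbbp7 was higher with NanogBiD at D3 (0.59) and D7 (0.77), and at D12 at 86.9 ± 7.06 against 62.9 ± 7.95 FPKM (0.46). Rbbp4 was higher at D10 (1.05) and D12 (0.84). Kdm6b, at 27.8 ± 3.58 against 12.2 ± 3.74 FPKM, was higher at D12 (1.15), as was Kdm6a (0.61). Ezhip was listed at 0 in both MEF libraries and at 1.04 and 1.19 FPKM with NanogBiD at D12, against 0.0274 and 0.0705 with NanogWT (1.01). Eloc fell from D0 to D12 in both combinations (-0.99 with NanogBiD and -0.60 with NanogWT), and Elob did not pass between the combinations on any day tested.

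Over the 31 time-course libraries the levels of 5 members followed one another. Pearson's r in log2(FPKM + 1) was 0.92 between Ezh2 and Eed, 0.92 between Ezh2 and Suz12, 0.90 between Ezh2 and Jarid2, 0.89 between Ezh2 and Mtf2 and 0.94 between Suz12 and Mtf2. It was 0.52 between Ezh2 and Ezh1, 0.08 between Ezh2 and Phf19, -0.13 between Ezh2 and Aebp2 and -0.37 between Ezh2 and Phf1. These points share days and combinations, so that the values are a description. Among all genes tested the 5 whose pattern was most like that of Ezh2 were listed as Fam60a, Mdm1, Supt16, Sinhcaf and Fam169a (r = 0.973 to 0.976 over 31 libraries), where Fam60a and Sinhcaf are names of the same gene. For Ezh1 they were Sh3rf2, LOC108168162, Stag3, 1700008O03Rik and Kdm4c, with lower values of r = 0.892 to 0.921.

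Established iPSC were compared in the transcript table, whose depth is not known and in which the summed level of a gene is not that of the gene table. In the 3 MEF and mES libraries present in both, the sum was 1.81 to 1.90 times the gene value for Mtf2, 1.51 to 1.62 times for Ezh2 and 0.891 to 0.933 times for Suz12. Levels are therefore compared only within a table. Some iPSC libraries carried fibroblast transcripts: the 8 fibroblast markers summed to 1346 FPKM in NanogBiD iPSC1 replicate 9, 423 in NanogWT iPSC1 replicate 3, and 2.85 to 147 in the other 10, against 6324 and 7204 in MEF.

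No PRC2 gene passed the test between the combinations in iPSC. By limma 0 of the 8 members that could be tested passed, none had an unadjusted p under 0.05, and Phf19 was below the filter. No gene of 12456 was called (0%), and 201 had an unadjusted p under 0.05. Ezh2 was at 43.1, 54.8 and 64.5 FPKM (lowest, median and highest of 6) in NanogBiD iPSC and at 43.5, 55.2 and 76.7 in NanogWT iPSC, and Ezh1 at 4.41, 4.75 and 6.62 against 4.33, 5.05 and 6.48. Jarid2 was at 54.1, 64.1 and 89.6 FPKM against 51.0, 74.0 and 122, and Mtf2 at 62.5, 74.6 and 82.4 against 66.7, 75.7 and 82.4. The log2 differences lay between -0.15 (Jarid2, SE 0.14) and 0.07 (Phf1, SE 0.13), and the groups overlapped for all 9 genes. The ratio of Ezh2 to Ezh1 was 9.15 to 14.5 in NanogBiD iPSC and 8.68 to 12.9 in NanogWT iPSC, a mean log2 difference of -0.04 (p = 0.811 by an exact permutation test, two-sided, with 350 arrangements inside the lines), which lay between -0.12 and 0.04 as single libraries were left out. A p of this size does not show that the combinations were alike. In the transcript table the ratio was 5.07 and 5.51 in MEF and 7.96 in mES.

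Against MEF, 6 members were higher in the 12 iPSC libraries and 2 were lower, in a comparison in which 71.4% of 13312 genes were called and the median over all was 0.22. Jarid2 was at 74.2 ± 19.5 FPKM (SD, n = 12) against 3.53 ± 0.398 (n = 2), a log2 difference of 3.97 (SE 0.19), and Mtf2 at 75.1 ± 5.88 against 6.89 ± 0.375 (3.27, SE 0.10). The core genes followed with Suz12 at 106 ± 10.0 against 17.6 ± 1.94 FPKM (2.50, SE 0.10), Eed at 79.0 ± 12.3 against 13.3 ± 1.37 (2.46, SE 0.15) and Ezh2 at 55.7 ± 9.34 against 14.9 ± 1.08 (1.84, SE 0.16). Ezh1 was higher too, at 5.17 ± 0.796 against 2.81 ± 0.0393 FPKM (0.69, SE 0.15, limma adjusted p = 0.0011). Phf1, at 1.64 ± 0.292 against 7.93 ± 2.08 FPKM, and Phf19, at 0.333 ± 0.178 against 2.69 ± 0.312, were lower (-1.74, SE 0.18, and -1.49, SE 0.16, adjusted p of 2.0e-06 and 4.5e-06). Aebp2, at 19.6 ± 4.06 against 16.5 ± 1.99 FPKM, did not pass (0.23, SE 0.19, adjusted p = 0.29). The 8 calls were made with each library left out in turn and with the 2 libraries of NanogWT iPSC1 clone number 1 averaged, as were the 0 calls between the combinations. Mtf2 made up 97.0% to 98.2% of the PCL level in iPSC against 36.7% and 42.6% in MEF, and Jarid2 made up 71.7% to 83.7% of its pair against 20.2% and 15.4%. Of the list of 10, 6 genes were higher in iPSC and 2 were lower, led by Epop at 435 ± 121 against 4.04 ± 0.0113 FPKM (6.35). The cell cycle list, of which 13 of 14 genes were higher in iPSC, summed to 1342 to 1975 FPKM in iPSC against 428 and 438 in MEF, and its part in the result was not tested.

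**Figure D5:**
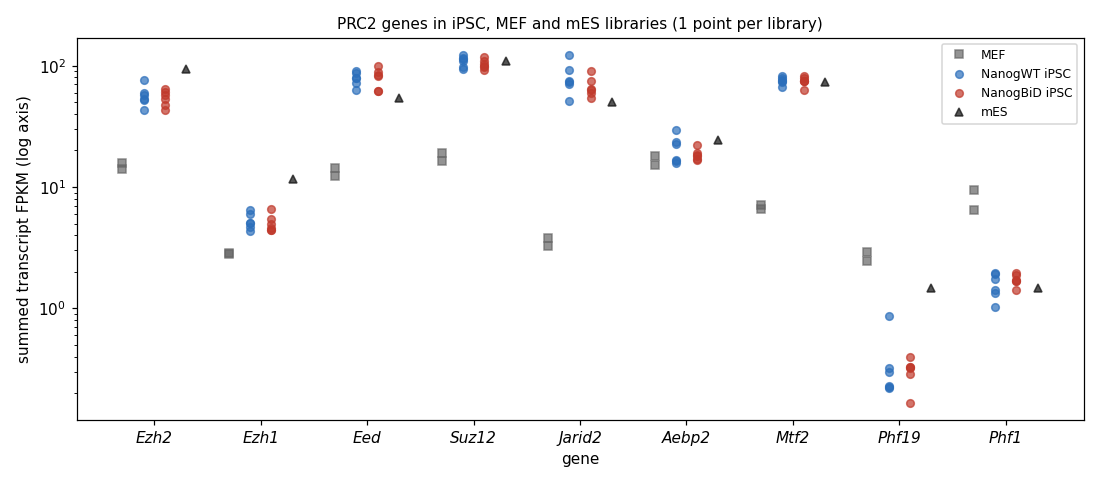
Summed transcript level of each PRC2 gene (FPKM, log axis) in MEF (squares), NanogWT iPSC, NanogBiD iPSC and mES (triangle), with a point per library. The iPSC of both combinations overlap for every gene, above MEF for Jarid2, Mtf2, Suz12, Eed, Ezh2 and Ezh1 and below it for Phf1 and Phf19.

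Single transcripts were assigned less evenly than gene sums. Of the 2 Ezh1 transcripts, NM_007970.3 held 63.4% of the level in MEF, 81.5% in iPSC (43.5% to 99.9% over the libraries) and 100% in mES. Of the 2 Suz12 transcripts, NM_199196.2 held 72.2% in MEF, 66.6% in iPSC (56.5% to 75.8%) and 70.3% in mES. Jarid2 was listed as NM_001205043.1 alone in MEF, and that transcript held 51.4% in iPSC (16.1% to 94.5%) and 88.7% in mES. For Ezh2, NM_007971.2 held 52.8% in MEF, 33.2% in iPSC (2.16% to 62.7%) and 1.17% in mES. The iPSC libraries spread widely in each of these shares, and no transcript was tested.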

How the data were processed

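RNA-seq of 46 mouse libraries was used. Per the labels, reads were trimmed by Trim Galore 0.6.4, then the authors aligned them to mm10 with HISAT2 (2.2.1) and quantified them with StringTie (2.2.1). The deposited values are FPKM, in a gene table (37108 genes, 34 libraries, of which 297 rows repeat another row under another symbol) and a transcript table (106520 transcripts, 15 libraries), with replicates kept apart. Annotation and strand are not given in the sources used here, and the labels and the study's methods name different versions of the library kit. FPKM are not counts, so no count model was used. Sequencing depth is known only as relative depth in the gene table, and no interval or detection floor is given.

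Groups came from the labels. Genes that reached 1 FPKM in 2 or more libraries were tested on log2(FPKM + 1), a scale that understates the change of low genes, with limma 3.58.1 in R 4.3.3 (a mean per combination and day, trended eBayes, two-sided). Calls needed an adjusted p (Benjamini-Hochberg, over all genes tested) under 0.05, with no fold limit. In iPSC the line was a covariate. D8, with 1 NanogBiD library, was not tested by gene but entered the ratio test. Nothing says that libraries came from separate cultures, so the p-values measure the spread between these libraries, which may be technical. Replicate numbers were not used to pair the samples in the main fit. The correlation of same-numbered deviations by day ran from -0.06 at D3 to 0.39 at D7, and it was 0.23 at D0. Results with a replicate block are given below. Ratios used exact permutation tests. The model was tested on simulated data. Python 3.11.15, numpy 2.4.6, pandas 2.3.3 and matplotlib 3.10.9 were used.

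The members, lists, tests and alternatives were chosen with earlier results of these data known. Named genes were all 9 members, 10 further PRC2-related genes, a cell cycle list of 14, the 5 genes most like Ezh2 and Ezh1, and the members' transcripts with at least 10% of a gene's level. Epop, Elob, Eloc and Ezhip are listed in the transcript table as E130012A19Rik, Tceb2, Tceb1 and AU022751.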

Additional observations from a re-analysis of the deposited data

Results flagged for a closer look

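The change since D0 differed between the combinations for several members. By D7 the change with NanogBiD was above that with NanogWT by 1.10 in log2(FPKM + 1) for Ezh2, 0.88 for Jarid2 and 0.87 for Eed. By D12 it was above by 1.69 for Mtf2, 1.59 for Jarid2, 1.35 for Ezh2, 1.19 for Suz12, 1.17 for Ezh1 and 1.07 for Eed, and for Aebp2 it was below, at -0.70. At D12 the NanogWT libraries were also 2.04 to 3.17 in relative depth, against 0.808 and 0.894 for NanogBiD, and depth and combination cannot be told apart there.

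In 1 group a single library stood far from the others. Phf19 in NanogWT iPSC1 replicate 2 was at 0.86 FPKM, against 0.22 to 0.325 in the other 5 NanogWT iPSC libraries, a gap that took up 0.836 of the range of the group. Of the 20 sets of 6 iPSC libraries that were looked at, about 1 in 20 would stand out by chance.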

How the results depend on the processing

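Of the results of single members, 968 of the values under other settings and 717 of those with 1 library left out kept direction and side of the threshold, 48 and 36 lost the call, and 22 and 9 gained it; no called value changed sign. The number of members called moved as follows. With a 2-fold limit it was 0 at D3 and D5, 3 at D7, 3 and 1 for the D7 change within NanogBiD and NanogWT, 1 for the difference of these changes and 1 for the D12 change within NanogWT. Fitted on the compared groups alone, which leaves few degrees of freedom, it was 0 at D3 and D5, 0 for the D7 change within NanogWT, 1 for the difference of the D7 changes, 2 for the D12 change within NanogWT and 4 for the difference of the D12 changes. Rescaling to a common total gave 0 at D3, quantile normalization gave 3 for the D12 change within NanogWT, and no filter on low values gave 1 at D0. The cause was not tested. With 1 library left out, the counts were 0 to 2 at D0, 0 at D3, 0 to 1 at D5, 3 to 5 at D7, 1 to 3 and 2 to 5 for the D7 and D12 changes within NanogWT and 0 to 3 for the difference of the D7 changes. Quantile normalization took the median of all genes from 0.24 to -0.01 for the D7 change within NanogBiD and from 0.34 to -0.01 for the D12 change, and the share of higher calls among all calls from 71.2% to 50.1% and from 69.3% to 50.5%. Removal of the trend over GC content and length used the 15428 of 16842 genes (91.6%) with both values.

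With the replicate block, 1 member was called at D0 in place of none (Aebp2), 7 in place of 6 at D10 (Phf1 in addition) and 3 in place of 2 for the D7 change within NanogWT (Suz12 in addition), and it changed no other call of a member. The log2 ratio of Ezh2 to Ezh1 over D5 to D12 was 1.26 with same-numbered libraries paired (exact sign-flip permutation p = 0.00781). It was 0.80 on D5 and D7 alone (exact permutation p = 0.167), and 0.99 without replicate 1 and 1.48 without replicate 2 of every day (exact permutation p = 0.25 and 0.0625). Those 3 designs allow no p under 0.0556, 0.125 and 0.0625. Without replicate 1, D8 dropped out as well, since NanogBiD had no replicate 2 there, so that 0.99 and 1.48 cover different days. No paired analysis was possible for iPSC because the combinations share too few clone numbers within a line.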

Other observations

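Clones of the iPSC lines differed in the level of X-linked genes, which was noticed after the values were seen. The median deviation of 421 X-linked genes from their mean over the 12 libraries, set against that of 10860 autosomal genes, ranged from -0.39 (NanogBiD iPSC2 replicate 3) to 0.48 (NanogWT iPSC1 replicate 1-2) in log2(FPKM + 1), and both combinations held low and high libraries. Of the PRC2-related list, Rbbp7, Kdm6a and Ezhip are on the X chromosome. In the library lowest on this measure they were at 133, 9.08 and 0.168 FPKM, and in the highest at 208, 18.1 and 6.15. Jarid2, on chromosome 13, was at 54.1 and 121.9 FPKM in these libraries and Ezh2, on chromosome 6, at 52.8 and 43.5. Rbbp7 ran from 125 to 213 FPKM and Ezhip from 0.168 to 6.95 over the 12 libraries. The libraries of replicates 1 and 1-2 of NanogWT iPSC1, which differed in passage, were at 0.08 and 0.48 on this measure. No test was made.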
